A study of Mus musculus with 14 samples.

Results

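The 32 genes described here encode the enzymes that activate, carry and oxidise fatty acids in mitochondria and peroxisomes, 2 enzymes of ketone body metabolism, the PPAR receptors with their coactivator, and 2 genes tied to fuel choice, Pdk4 and Ucp2. They were taken from a list of gene symbols and found through their Ensembl identifiers among 34452 mouse gene rows. All 32 were present and all 32 passed the filter on low counts, with at least 26 counts in every library. RNA came from the retinal pigment epithelium (RPE), the pigmented layer behind the photoreceptors, of 7 rd1 mice (FVB/N strain) at postnatal day 20. The rd1 allele removes Pde6b function and both eyes of every mouse carry it, so no healthy eye is among the libraries. The study states that such mutations lead to the death of rods. It cites earlier work on rd1 mice in which photoreceptors degenerated during the first postnatal weeks. Both eyes of each mouse were injected under the retina with AAV-Best1-GFP. The eyes called Nrf2 also received AAV-Best1-Nrf2, and the eye on the other side, called control, did not. Nrf2 is a transcription factor best known for switching on antioxidant genes, and here the human coding sequence was expressed. The human Best1 promoter limits expression to the RPE. The Nrf2 vector was packaged in AAV8 and the GFP vector in a different capsid, so a Nrf2 eye differed from its control eye by the transgene, a second vector and a capsid.

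In a healthy eye the RPE takes up the tips of photoreceptor outer segments every day and burns the fatty acids that they carry. How much outer segment material reached the RPE of these rd1 eyes was not measured. Acyl-CoA synthetases bind a fatty acid to coenzyme A, the carnitine shuttle moves it across the inner mitochondrial membrane, and rounds of dehydrogenation, hydration and thiolysis cut it into acetyl-CoA. Acetyl-CoA can be turned into the ketone body beta-hydroxybutyrate, which the RPE releases towards the photoreceptors. The PPAR receptors are nuclear receptors that bind fatty acids and raise many genes of this pathway, and Ppargc1a is a coactivator that they share with other factors of mitochondrial metabolism. The comparison of the 2 eyes of each mouse asked which of these transcripts differed when Nrf2 was overexpressed in the RPE.

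Total counts lay between 16548349 (the library labelled Nrf2 2) and 50543008 (Nrf2 7). Levels are given as CPM, counts scaled to a library total of 1e+06. The vector transcript, which checks the labels, was at 4577 to 8711 CPM in 6 Nrf2 libraries and at 1.12 to 175 in 6 control libraries, but at 1163 both in the library labelled control 3 and in Nrf2 4. These libraries stood between the groups, so results that rest on them are given with and without mice 3 and 4. Transcripts of 16 RPE markers summed to between 22481 and 40751 normalised CPM (CPM after TMM scaling) in the 14 libraries, with no marker at 0 throughout. Single markers within this sum moved in opposite directions. Rpe65 was at 720 to 2097 in control and 137 to 1046 in Nrf2 eyes, and lower in the Nrf2 eye of all 7 mice. Ttr was at 1133 to 5136 in control and 3638 to 16400 in Nrf2 eyes, and higher in every mouse but mouse 4. Surface epithelium keratins (Krt5, Krt12, Krt13, Krt14 and Krt15) were also abundant, summing to 1634 to 52495 in control and 2142 to 22780 in Nrf2 eyes. In such bulk RNA, fewer cells of a type and less RNA per cell cannot be told apart.

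The promoters of 3 genes are shown because the results below turn on them. Cpt2 was the member that rose, Ucp2 was the member with the highest level per kilobase in control eyes, and Acox2 was the peroxisomal gene with the largest difference outside the 32. They are the RefSeq promoter windows of build GRCm38.p6, each 300 bases long and read 5′ to 3′ on the strand of the gene. Capitals mark matches to the core of the antioxidant response element to which Nrf2 binds (TGACNNNGC, searched on both strands). The windows lie at chr4:107923540-107923839 on the minus strand (Cpt2), chr7:100493108-100493407 on the plus strand (Ucp2) and chr14:8258970-8259269 on the minus strand (Acox2).
Cpt2: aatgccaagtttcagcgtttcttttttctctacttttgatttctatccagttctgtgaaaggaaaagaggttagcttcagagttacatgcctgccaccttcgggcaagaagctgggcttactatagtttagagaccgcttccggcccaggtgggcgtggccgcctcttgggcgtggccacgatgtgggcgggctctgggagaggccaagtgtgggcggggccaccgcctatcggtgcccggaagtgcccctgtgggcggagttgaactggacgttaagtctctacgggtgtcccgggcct
Ucp2: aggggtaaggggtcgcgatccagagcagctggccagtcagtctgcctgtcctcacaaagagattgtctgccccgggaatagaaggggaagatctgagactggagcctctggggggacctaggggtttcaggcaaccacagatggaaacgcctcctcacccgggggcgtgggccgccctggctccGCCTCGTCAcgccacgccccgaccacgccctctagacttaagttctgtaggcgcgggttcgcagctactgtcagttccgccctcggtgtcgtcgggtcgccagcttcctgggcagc
Acox2: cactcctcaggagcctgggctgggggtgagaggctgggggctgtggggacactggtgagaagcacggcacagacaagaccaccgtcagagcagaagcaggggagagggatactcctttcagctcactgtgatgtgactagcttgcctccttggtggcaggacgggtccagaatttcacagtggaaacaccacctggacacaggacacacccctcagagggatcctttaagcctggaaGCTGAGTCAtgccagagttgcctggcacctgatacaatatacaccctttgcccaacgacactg
The Cpt2 window held no match. Positions are counted from the RefSeq transcription start on which each window is placed. The match in Ucp2 began at -66 and the match in Acox2 at -13. Both were on the opposite strand, so the capitals show the motif's reverse complement, and in Acox2 the same letters also contain a match to the AP-1 motif TGACTCA. That AP-1 motif occurred in 5.95% of genes in the whole table. A second Acox2 window, placed on another start, held the same match at -193. The Acox2 window shown lies inside the gene span given below. Of the 32 members, 28 had a promoter in this table. The antioxidant response element core occurred in 4 of those 28 (14.3%), namely Ehhadh, Ppard, Pparg and Ucp2, beside 3781 of 27025 genes and 12.4% of promoters in the whole table. No member's window held the PPAR response element, a direct repeat with a spacer of 1 base, which occurred in 13 of 32851 promoters (0.0396%).

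One of the 32 members rose in Nrf2 eyes and none fell at an adjusted p under 0.05 (edgeR's quasi-likelihood test, paired by mouse). Among all 16289 genes tested, 2.94% rose and 0.491% fell, and 3.43% were called in either direction. The members' share, 1 of 32 or 3.12%, was thus near that background. At an unadjusted p under 0.05 there were 4 members (12.5%, against 18.1% of all genes). They were Cpt2 and Acat1, which were higher as were 10.7% of all genes, and Acot1 and Bdh1, which were lower as were 7.49%. DESeq2 called 2 members higher and 1 lower, beside 7.60% and 4.33% of all genes, and voom called 2 higher and none lower, beside 9.74% and 6.19%. Fitted log2 fold changes were above 0 in 15 members (45.2% of all genes) and below 0 in 17, with a median of -0.06 beside -0.04 over all genes, and they ran from -0.70 (Acsl1) to 0.74 (Pdk4). For no member were the 2 groups of libraries free of overlap, which was so for 1.60% of all genes.

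**Figure D1:**
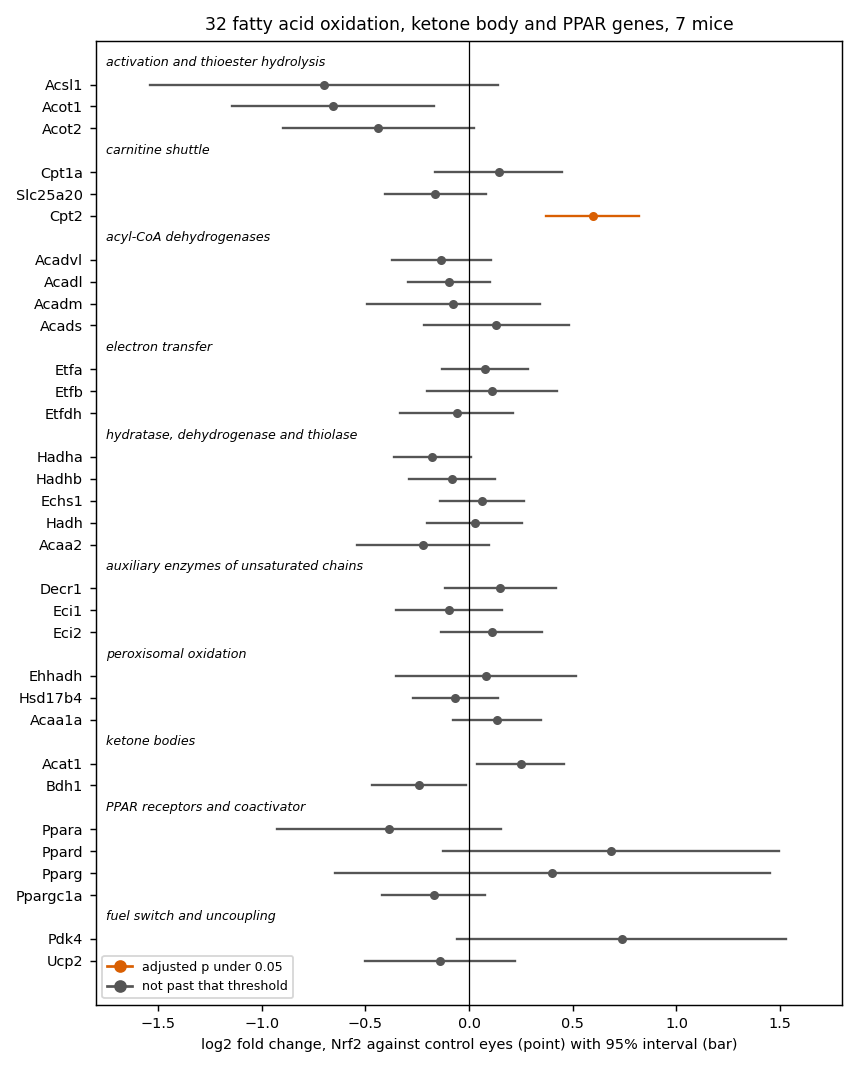
Log2 fold change of the 32 members, Nrf2 against control eyes of 7 mice (horizontal axis), with each gene on a line and its role above it. Points are fitted values and bars their 95% intervals; the interval of Cpt2, in orange, lies wholly above 0, most others cross 0, and the bars of Acsl1, Ppard, Pparg and Pdk4 are the widest.

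The intervals show how large a difference these 7 pairs could have missed. In 27 of the 32 members (84.4%) the 95% interval of the log2 fold change lay within 1 of 0 on either side, as it did for 58.0% of all genes. It lay within 0.5 in 21 members (65.6%), against 25.3% of all genes. The 5 members whose interval passed 1 were Acsl1, Acot1, Ppard, Pparg and Pdk4. Variation among control eyes was small for most members, with a median coefficient of variation of 12.9% beside 25.2% over all genes. It was lowest for Ppara (6.49%) and Acadl (7.38%) and highest for Pparg (50.7%) and Acsl1 (48.4%). The comparisons of intervals and variation with all genes were not matched for expression level. Of the members, 2 were under 5 CPM in both groups.

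Levels between genes were compared per kilobase of transcript. Ucp2, which encodes an inner membrane carrier of mitochondria, led the members in control eyes at 261 ± 67.4 normalised CPM per kilobase (SD, n = 7). Etfb, for the beta subunit of the electron transfer flavoprotein that takes electrons from the acyl-CoA dehydrogenases, followed at 247 ± 25.3. Acaa2, the mitochondrial thiolase, stood at 158 ± 23.3 on the same scale. The ranges of Ucp2 and Etfb overlapped, while that of Etfb, 204 to 275, lay above that of Acaa2, 121 to 185. Eci1, an isomerase for unsaturated chains, was next at 127 ± 15.2, with a range that overlapped that of Acaa2. Etfa, the alpha subunit of the flavoprotein, came after it at 96.6 ± 10.8 and its highest value, 109, was below the lowest of Eci1, 110. At the other end stood the regulators, with Ppara at 2.00 ± 0.13, Pdk4 at 1.5 ± 0.40, Pparg at 1.27 ± 0.64 and Ppard at 0.61 ± 0.25, and the ranges of neighbours in this order overlapped.

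None of these 5 abundant members passed the test, and all values from here on are normalised CPM, not divided by length. Ucp2 was at 779 to 1505 (median 989) in control and 717 to 1218 (median 931) in Nrf2 eyes, with a log2 fold change of -0.14 (adjusted p 0.67, SE 0.16) and a lower value in 6 of 7 Nrf2 eyes. Etfb was at 182 to 245 (median 226) in control and 177 to 291 (median 238) in Nrf2 eyes, a log2 fold change of 0.11 (adjusted p 0.71, SE 0.14) with 4 of 7 mice higher. Acaa2 was at 183 to 280 (median 243) in control and 153 to 251 (median 197) in Nrf2 eyes. The groups overlapped for all 3 genes. The fit gave Acaa2 a log2 fold change of -0.22 (adjusted p 0.43, SE 0.14), with 5 of 7 mice lower. Acaa2 was highest in control 6 (280), the library with the highest sum of surface keratins (52495). Its lowest control value, 183, was in control 1 and not in control 4, which had the lowest sum (1634) and Acaa2 at 202. The part of the surface epithelium in its values was not tested. Eci1 spanned 125 to 167 (median 146) in control and 106 to 156 (median 136) in Nrf2 eyes, with a log2 fold change of -0.10 (adjusted p 0.68, SE 0.11) and 4 of 7 mice higher. For Etfa the values were 112 to 152 (median 135) and 133 to 150 (median 141), with a log2 fold change of 0.08 (adjusted p 0.69, SE 0.09) and 4 of 7 mice higher.

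Activation of fatty acids and its reversal were covered by 3 members, and none passed the test. Acsl1, a long-chain acyl-CoA synthetase, was at 89.5 to 375 (median 192) in control and 71.2 to 231 (median 92.1) in Nrf2 eyes. The groups overlapped, and the Nrf2 eye was lower in 6 of 7 mice and higher in mouse 4. Its log2 fold change was -0.70 (adjusted p 0.36, SE 0.37), which became -1.01 (adjusted p 0.0371) without mouse 4 and -0.99 (adjusted p 0.11) without mice 3 and 4. The surface keratins moved with Acsl1 from library to library. Their sum and Acsl1 were both highest in control 6, at 52495 and 375, and control 5 came second for the keratins at 30534, with Acsl1 at 226. In the libraries with the 2 lowest sums, control 4 (1634) and Nrf2 7 (2142), Acsl1 was at 89.5 and 71.2. In mouse 4 the keratin sum was higher in the Nrf2 eye (20349) than in the control eye, the reverse of the other 6 mice, as was Acsl1. The part of the surface epithelium in the difference of Acsl1 was not tested.

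**Figure D2:**
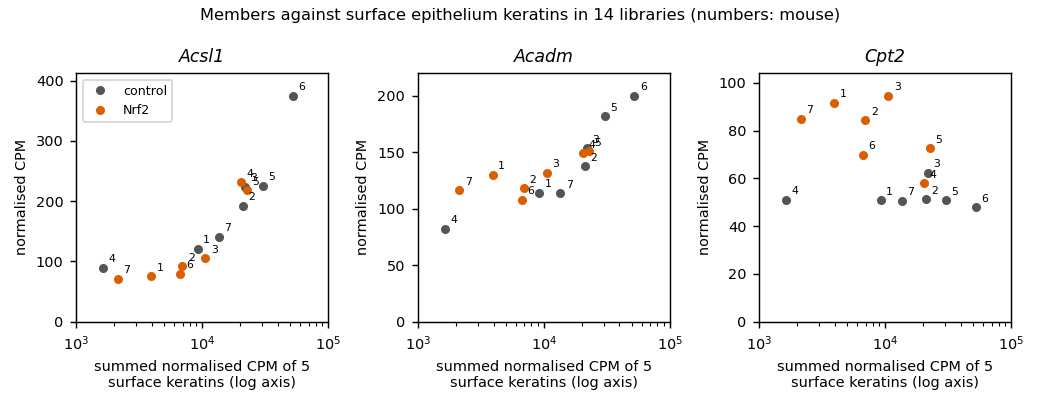
Acsl1, Acadm and Cpt2 (normalised CPM, vertical axes from 0) against the summed normalised CPM of 5 surface epithelium keratins (log axis) in 14 libraries; each point is an eye, grey for control and orange for Nrf2, with the mouse number beside it. Acsl1 and Acadm are highest in control 6, which has the highest keratin sum, and Cpt2 is at 47.9 to 51.3 in control eyes other than control 3. Among Nrf2 eyes, Cpt2 is lower in Nrf2 4 and Nrf2 5, with the highest sums, than in Nrf2 1 and Nrf2 7, with the lowest. Nrf2 3, with a sum between these, has the highest Cpt2, and Nrf2 6, also between them, is below Nrf2 5.

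Acot1 and Acot2, thioesterases that free the fatty acid from coenzyme A in the cytosol and in mitochondria, lie next to each other on chromosome 12 and are near-identical, so reads may be split between them. Acot1 was at 17.7 to 32.9 (median 25.8) in control and 11.1 to 20.5 (median 17.4) in Nrf2 eyes. All 7 Nrf2 eyes were below their control eye, yet the groups overlapped. The log2 fold change was -0.66 (SE 0.21) with an adjusted p of 0.15, the exact sign-flip test gave p 0.0156, the smallest that 7 pairs allow, and 2.93% of all genes were lower in all 7 mice. Without the block for mouse its adjusted p was 0.0400, and with DESeq2 it was 0.0493. Acot2, at 6.51 to 10.2 in control and 3.87 to 8.11 in Nrf2 eyes, had a log2 fold change of -0.44 (adjusted p 0.30, SE 0.20). With the counts of both genes summed the value was -0.59 (adjusted p 0.12, SE 0.18).

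The carnitine shuttle held the member that rose. Cpt2, the carnitine palmitoyltransferase on the inner membrane that hands the acyl group back to coenzyme A (ENSMUSG00000028607, chromosome 4, 107903981 to 107923610, GRCm38), was at 47.9 to 62.3 (median 50.8) in control and 57.9 to 94.5 (median 84.3) in Nrf2 eyes. The highest control value was that of control 3 and the lowest Nrf2 value that of Nrf2 4, and the groups overlapped through these libraries alone, since the other 6 control eyes were at 51.3 or below. Its log2 fold change was 0.60 (adjusted p 0.0178, SE 0.098), a rise of 51.1%, and it was higher in 7 of 7 mice, as were 5.65% of all genes. Without mice 3 and 4 it was 0.68 (adjusted p 0.0235, SE 0.11). In the Nrf2 eyes with the highest keratin sums, Nrf2 5 (22780) and Nrf2 4 (20349), Cpt2 was at 72.5 and 57.9. In those with the lowest sums, Nrf2 1 (3946) and Nrf2 7 (2142), it was at 91.7 and 85.0. The Nrf2 eyes between them did not keep this order: Nrf2 3 (10604), Nrf2 2 (6973) and Nrf2 6 (6710.5) were at 94.5, 84.3 and 69.9. Among control eyes, Cpt2 was at 47.9 in control 6 (52495, the highest sum) and at 51.0 in control 4 (1634, the lowest). The part of the surface epithelium in the difference of Cpt2 was not tested. The call was lost without mouse 1, 3, 5, 6 or 7, with adjusted p from 0.0507 to 0.0829, and with counts scaled to their total alone (log2 fold change 0.46, adjusted p 0.0518). Over the fits with 1 mouse left out, the log2 fold change stayed at 0.55 to 0.67. Without mouse 1, 3, 5, 6 or 7, edgeR called 111 to 240 genes among all those tested, against 559 with all mice.

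The other members of the shuttle did not pass the test. Cpt1a, the outer membrane enzyme that malonyl-CoA inhibits and the usual control point of mitochondrial oxidation, was at 185 to 302 (median 265) in control and 217 to 318 (median 278) in Nrf2 eyes, with a log2 fold change of 0.14 (adjusted p 0.61, SE 0.13) and 5 of 7 mice higher. Slc25a20, the carrier that exchanges acylcarnitine for carnitine, was at 40.9 to 67.8 in control and 43.7 to 57.7 in Nrf2 eyes, with a log2 fold change of -0.16 (adjusted p 0.46, SE 0.11). The 95% intervals of both genes lay within 0.5 of 0 on the log2 scale, from -0.16 to 0.45 for Cpt1a and from -0.41 to 0.08 for Slc25a20.

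**Figure D3:**
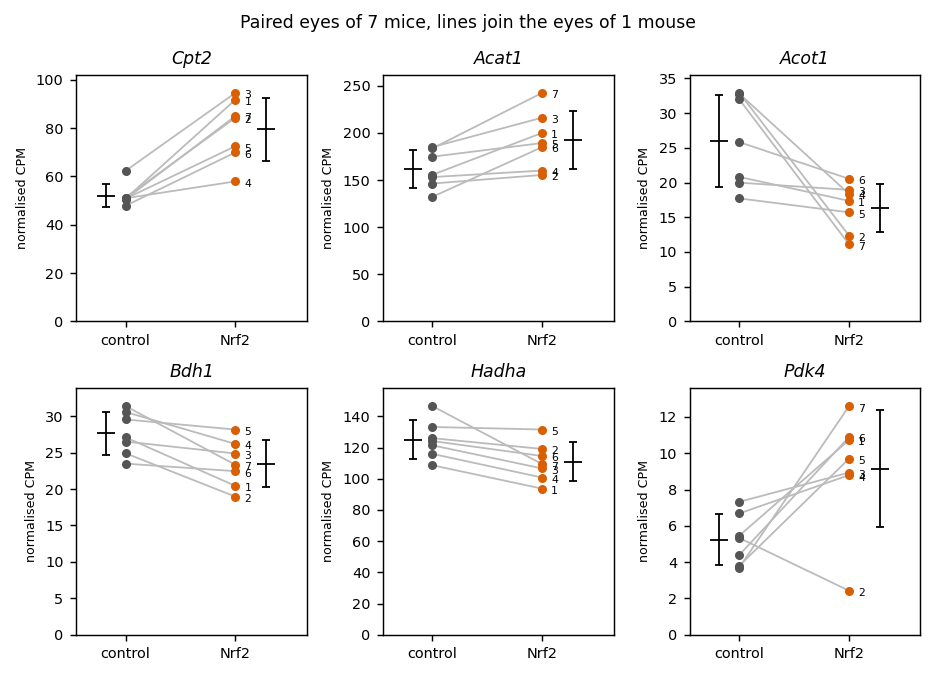
Normalised CPM (vertical axes, from 0) of 6 members in the control (grey) and Nrf2 (orange) eye of 7 mice; lines join the eyes of a mouse, the mouse number is beside the Nrf2 value, and bars give the mean and SD of each group. Cpt2 and Acat1 are higher and Acot1, Bdh1 and Hadha lower in the Nrf2 eye of all 7 mice, with Cpt2 alone past the threshold, and Pdk4 is lower in mouse 2 only.

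No acyl-CoA dehydrogenase passed the test, from the very long-chain to the short-chain enzyme. Acadvl had a log2 fold change of -0.13 (SE 0.10), Acadl one of -0.10 (SE 0.09), Acadm one of -0.08 (SE 0.18) and Acads one of 0.13 (SE 0.15), with adjusted p from 0.53 to 0.87. Their 4 intervals all lay within 0.5 of 0. Acadm, the medium-chain enzyme, was at 82.2 to 182 in control eyes other than control 6 (median 138 with it) and 108 to 151 (median 130) in Nrf2 eyes. It too was highest in control 6 and lowest in control 4, the control libraries with the highest and the lowest keratin sum, and the part of the surface epithelium in its values was not tested. The value of Acadm turned to 0.05 without mouse 6. Among the genes for electron transfer, Etfdh, the dehydrogenase that passes the electrons on to ubiquinone, had a log2 fold change of -0.06 (adjusted p 0.83, SE 0.12), and Etfa and Etfb are given above.

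The later steps of the cycle gave 5 members and no call. Hadha, the alpha subunit of the trifunctional protein, was at 109 to 147 (median 124) in control and 93.6 to 132 (median 109) in Nrf2 eyes. Every Nrf2 eye was below its control eye, by 0.02 to 0.42 on the log2 scale, but the adjusted p was 0.29 for a log2 fold change of -0.18 (SE 0.08). Hadhb, the beta subunit, starts beside Hadha on chromosome 5 on the opposite strand, and it had a log2 fold change of -0.08 (adjusted p 0.66, SE 0.09). Echs1 and Hadh, the hydratase and the dehydrogenase of shorter chains, had values of 0.06 and 0.03 with adjusted p of 0.75 and 0.91, and with counts scaled to their total alone these values were -0.07 and -0.10. For Decr1 and Eci2, which prepare unsaturated chains for the cycle, the log2 fold changes were 0.15 (SE 0.12) and 0.11 (SE 0.11), with adjusted p of 0.53 and 0.62.

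Peroxisomes shorten very long and branched chains, and the 3 members of this group did not pass the test. Ehhadh, a bifunctional enzyme and a classic PPAR target, had a log2 fold change of 0.08 (adjusted p 0.86, SE 0.19) at 6.41 to 12.7 normalised CPM in control eyes. Hsd17b4, the other bifunctional enzyme, had one of -0.07 (adjusted p 0.74, SE 0.09). Acaa1a, the peroxisomal thiolase, had one of 0.14 (adjusted p 0.47, SE 0.09), and 0.14 also when its counts were summed with those of its near-copy Acaa1b.

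Each of the ketone body members kept its own direction in all 7 mice, and neither passed the test. Of all genes, 5.65% were higher and 2.93% lower in all 7 mice. Bdh1, which makes beta-hydroxybutyrate from acetoacetate, was at 23.5 to 31.4 (median 27.1) in control and 18.96 to 28.2 (median 23.3) in Nrf2 eyes. Acat1, the thiolase that joins and splits acetoacetyl-CoA, was at 132 to 185 (median 156) in control and 155 to 243 (median 189) in Nrf2 eyes. The groups overlapped for both genes, Bdh1 being lower and Acat1 higher in every Nrf2 eye. The log2 fold change of Bdh1 was -0.24 (adjusted p 0.25, SE 0.10) and that of Acat1 was 0.25 (adjusted p 0.20, SE 0.09). Each had an exact sign-flip p of 0.0156, the smallest that 7 pairs allow. With DESeq2, Acat1 had an adjusted p of 0.0479.

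The PPAR receptors were low and did not pass the test. Ppara was at 5.95 to 7.23 (median 6.85) in control and 3.35 to 9.59 (median 5.50) in Nrf2 eyes, and Nrf2 2 was the single Nrf2 library above its control eye. The log2 fold change was -0.39 (adjusted p 0.42, SE 0.24), or -0.56 (adjusted p 0.14, SE 0.18) without mouse 2. Ppard was at 1.03 to 3.56 (median 2.03) in control and 1.45 to 4.46 (median 3.71) in Nrf2 eyes, with a log2 fold change of 0.68 (adjusted p 0.35, SE 0.36) and 6 of 7 mice higher. The groups overlapped for both receptors. Pparg was at 0.90 to 4.72 (median 2.65) in control and 1.81 to 4.43 (median 3.45) in Nrf2 eyes, with a log2 fold change of 0.40 (adjusted p 0.68, SE 0.46) and 5 of 7 mice higher. At this spread the 95% interval of Pparg ran from -0.65 to 1.45, a span that includes a difference of 1 upward. The 5 adipocyte markers, from the cell type that uses Pparg most, summed to 0.94 to 4.39 in control and 0.84 to 6.37 in Nrf2 eyes. Ppargc1a was at 41.1 to 72.3 (median 55.0) in control and 42.8 to 54.3 (median 50.3) in Nrf2 eyes, with a log2 fold change of -0.17 (adjusted p 0.44, SE 0.11) and 6 of 7 mice lower.

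Pdk4, the kinase that turns off pyruvate dehydrogenase when fatty acids are burned, had the highest fitted value of the 32. It was at 3.70 to 7.32 (median 5.33) in control and 2.43 to 12.6 (median 9.70) in Nrf2 eyes. The lowest Nrf2 value was that of Nrf2 2, and the other 6 Nrf2 eyes, from 8.80 up, were above every control eye. The log2 fold change was 0.74 (adjusted p 0.31, SE 0.35), or 1.01 (adjusted p 0.0749, SE 0.24) without mouse 2. With voom and its sample weights Pdk4 had an adjusted p of 0.0315.

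Within single mice, the members showed no common direction. The number higher in the Nrf2 eye was 18, 8, 16, 19, 14, 20 and 9 of 32 in mice 1 to 7, while 44.3% to 55.3% of all genes were higher in the same mice. The fewest were in mouse 2 and in mouse 7. The Nrf2 library of mouse 2 had the fewest counts of the 14 but the most genes with at least 10 counts (19164). The median absolute difference of the members was 0.16 to 0.40 on the log2 scale, beside 0.31 to 0.63 for all genes, not matched for expression level.

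**Figure D4:**
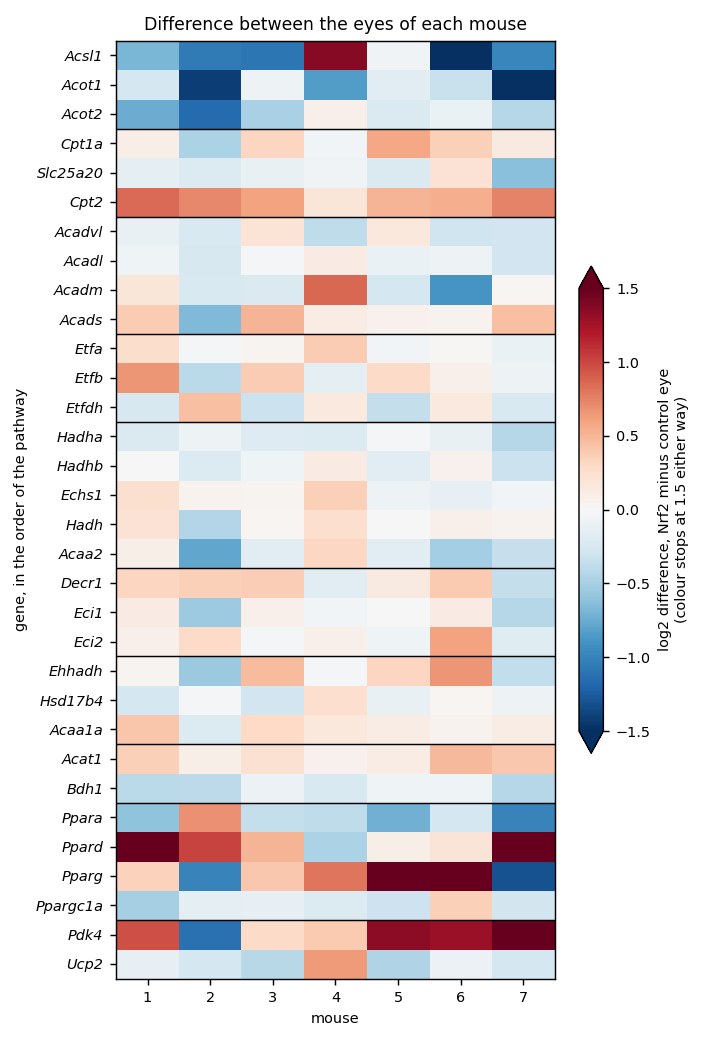
Log2 difference between the Nrf2 and the control eye (colour, red higher and blue lower, scale stopped at 1.5 either way) of 32 members (rows, grouped by role between black lines) in mice 1 to 7 (columns). The row of Cpt2 is red throughout, those of Acot1, Hadha and Bdh1 are blue throughout, and Acsl1 is blue or near 0 in 6 mice and deep red in mouse 4.

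Of 82 further genes of the same pathways, 75 passed the filter on low counts, 4 rose and none fell. That is 5.33% called, beside 3.43% of all genes. At an unadjusted p under 0.05 there were 12 higher and 7 lower, beside 10.7% and 7.49% of all genes. DESeq2 called 8 higher and 3 lower, beside 7.60% and 4.33%, and voom 11 higher and 5 lower, beside 9.74% and 6.19%. The median log2 fold change was -0.10.

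The 4 genes that rose act at different steps. Acox2, the peroxisomal oxidase of branched chains and bile acid precursors (ENSMUSG00000021751, chromosome 14, 8225511 to 8259353, GRCm38), was at 2.02 to 33.9 (median 2.77) in control and 32.1 to 234 (median 145) in Nrf2 eyes. The highest control value was that of control 3 and the lowest Nrf2 value that of Nrf2 4, and without them the ranges were far apart. Its log2 fold change was 5.07 (adjusted p 0.0093, SE 0.63) with 7 of 7 mice higher, and 5.86 (adjusted p 0.0029, SE 0.46) without mice 3 and 4. Lpl, the lipase that frees fatty acids from lipoproteins, was at 77.1 to 236 (median 137) in control and 245 to 832 (median 605) in Nrf2 eyes. The highest control value, that of control 3, was just below the lowest Nrf2 value, that of Nrf2 4. The log2 fold change was 1.93 (adjusted p 0.0093, SE 0.23), and 2.21 (adjusted p 0.0040, SE 0.21) without mice 3 and 4. Both genes stayed past the threshold when any 1 mouse was left out.

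Lpin1, a phosphatidate phosphatase that also acts as a coactivator with Ppargc1a and Ppara, was at 8.34 to 26.6 (median 17.04) in control and 23.3 to 78.9 (median 51.4) in Nrf2 eyes. It was higher in 6 of 7 mice and slightly lower in mouse 4, with a log2 fold change of 1.59 (adjusted p 0.0286, SE 0.30). Dbi, the acyl-CoA binding protein, was at 193 to 255 (median 226) in control and 247 to 397 (median 352) in Nrf2 eyes, and its log2 fold change of 0.60 (adjusted p 0.0320, SE 0.12) was close in size to that of Cpt2. All 7 Nrf2 eyes were higher for Dbi. Leaving out any 1 mouse but mouse 4 took Lpin1 and Dbi past 0.05, up to 0.11 and 0.12. Over the fits with 1 mouse left out, their log2 fold changes stayed at 1.41 to 1.87 and at 0.52 to 0.65. Without mice 3 and 4, Lpin1 was at 1.94 (adjusted p 0.0064) and Dbi at 0.66 (adjusted p 0.0536).

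**Figure D5:**
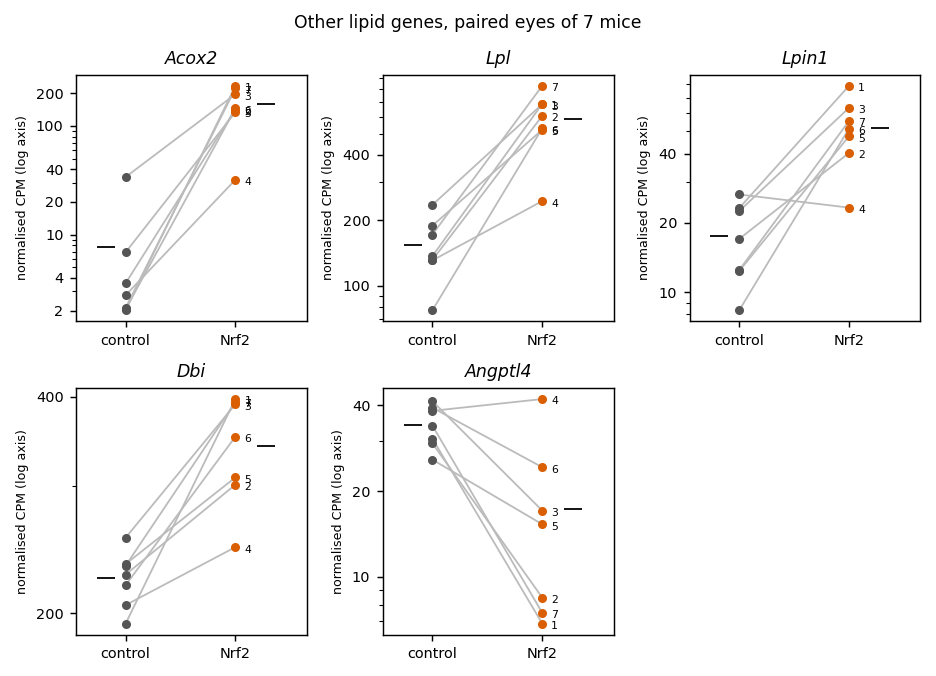
Normalised CPM (log axes) of 5 further lipid genes in the control (grey) and Nrf2 (orange) eye of 7 mice; lines join the eyes of a mouse, the mouse number is beside the Nrf2 value, and short bars give group means. Acox2, Lpl and Dbi are higher in all 7 Nrf2 eyes and Lpin1 in 6, with mouse 4 the least apart for Lpl and Dbi, whereas Angptl4 is lower in 6 mice without passing the edgeR test.

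All 8 cone markers had fitted values below 0, 2 of them past the threshold with edgeR, 6 with DESeq2 and 8 with voom, where 0.491%, 4.33% and 6.19% of all genes were called lower. Their sum was 41.2 to 918 in control and 18.4 to 96.2 in Nrf2 eyes, lower in 7 of 7 mice. The 9 rod markers also had fitted values below 0, none past the threshold with edgeR (5 at an unadjusted p under 0.05), 5 with DESeq2 and 6 with voom, and they summed to 21.2 to 479 in control and 7.65 to 93.3 in Nrf2 eyes, lower in 6 of 7 mice. Of the 16 RPE markers, edgeR called 1 lower and none higher, and DESeq2 and voom each called 1 lower and 1 higher. Of all genes, 2.94%, 7.60% and 9.74% were called higher with the 3 tools. The part of photoreceptor RNA, or of the shifts in RPE markers, in the differences of the lipid genes was not tested.

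Angptl4, a PPAR target that inhibits Lpl, was singled out after its values were seen. It was at 25.8 to 41.3 (median 33.9) in control and 6.86 to 42.1 (median 15.3) in Nrf2 eyes, lower in 6 of 7 mice and slightly higher in mouse 4. The log2 fold change was -1.25 (adjusted p 0.0592, SE 0.29), and -1.52 (adjusted p 0.0397, SE 0.29) without mice 3 and 4. The adjusted p was 6.65e-04 with DESeq2 and 0.0096 with voom, and over all alternatives it went up to 0.18. Among 15 genes of general mitochondrial content, such as citrate synthase (Cs), Tomm20 and Vdac1, none passed the edgeR test, as against 3.43% of all genes called. With edgeR, 2 had an unadjusted p under 0.05 (13.3%, beside 18.1% of all genes). DESeq2 called 1 higher, beside 7.60% of all genes, and voom called none. The median log2 fold change of the 15 genes was 0.06 and all 15 intervals lay within 1 of 0, as did 58.0% of all genes.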

How the data were processed

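RNA from the RPE of both eyes of 7 rd1 mice was sequenced in 14 libraries. The study's methods name fewer pairs at this age than the 7 in the labels, and all 7 were used here. The authors deposited 1 estimated count per gene and library, rounded to whole numbers. Per the labels and the study's methods, reads were checked with FastQC, aligned to mm10 with Ensembl annotation, and quantified with Salmon 0.9.1. That the table holds the Salmon values was inferred from its rows. Reads shared by near-identical genes are apportioned by its model. The vector transcript was kept out of the tests.

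Genes were tested with edgeR 4.0.16 (R 4.3.3): TMM normalization, filterByExpr with a minimum count of 10, mouse and treatment as terms, the quasi-likelihood F-test, and Benjamini-Hochberg adjustment over 16289 genes, with adjusted p under 0.05 as the threshold. Standard errors came from the F statistic, and 95% intervals used 8.68 degrees of freedom. Normalised CPM are counts scaled to 1e+06 per library after TMM scaling. Levels per kilobase used the longest coding transcript of GENCODE M21 (GRCm38), which matched 34401 of 34452 rows. For single genes the signs of the 7 within-mouse differences (log2 CPM with 2 prior counts) were flipped in all 128 ways, which is an exact two-sided permutation test.

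The numbers in the labels name the animal, so eyes were paired. Over 13782 genes, deviations from the group means correlated between the eyes of mice 1 to 7 at -0.01, 0.08, 0.07, -0.37, 0.37, -0.20 and 0.16. The labels mention separate sequencing runs without saying which library was in which, so run and group could not be told apart or adjusted for.

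Members and gene lists were chosen with earlier results of these data known. Values are given in full for members that were called, Cpt1a, Bdh1, the PPAR genes, Pdk4, Ucp2 and the 5 highest per kilobase, and among further genes for those called. Of the list of further genes, 2 are not reported here, and the counts leave them out. Others are named as examples of their step. Alternatives were no block, RLE and upper-quartile normalization, other filters, DESeq2 1.42.0, voom with sample weights (limma 3.58.1), a threshold of 0.01, summed near-copies, and each mouse, or mice 3 and 4, left out. Scaling to total counts was added after seeing the data. The test was checked on simulated data.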

Additional observations from a re-analysis of the deposited data

Results flagged for a closer look

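Among 74 groups of 7 libraries (37 genes in each treatment), 6 held a library far from the others by Dixon's criterion, where chance gives about 1 in 20, or 3.7. The library labelled control 3 was high for Cpt2, at 62.3 normalised CPM with the next control at 51.3, and for Acox2, at 33.9 with the next at 6.89. This library also carried the vector transcript.

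Nrf2 2 was involved in 3 of the 6. This library had the fewest counts but the most genes with at least 10 counts, 19164, with the next library (control 1) at 17370. The cause of this was not tested. It was lowest for Hadh at 90.5, with the next Nrf2 eye at 127, lowest for Pdk4 at 2.43, with the next at 8.80, and highest for Ppara at 9.59, with the next at 5.69. In the same mouse, control 2 was the lowest control for Ppara at 5.95, with the next at 6.73.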

How the results depend on the processing

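Cpt2 was the 1 member called higher in the paired test, and no member was called lower. The count higher was 0 with total-count scaling and with the threshold at 0.01, 2 with DESeq2 and with voom, and 0 to 1 when a mouse was left out (0 without mouse 1, 3, 5, 6 or 7). Of all genes, 2.94% were called higher in the main test, 1.92% with total-count scaling and 0.313% with the threshold at 0.01. This share was 7.60% with DESeq2, 9.74% with voom, and 0.626% to 1.22% without mouse 1, 3, 5, 6 or 7. Without mice 3 and 4 it was 3.01%, and 1.58% were called lower. The count lower was 1 with DESeq2 and 0 to 1 when a mouse was left out (1 without mouse 4, Acsl1). Of the further genes, 4 were called higher and none lower. These counts became 8 and 3 with DESeq2, 11 and 5 with voom, 2 and 0 with the threshold at 0.01, 4 and 3 without mice 3 and 4, and 2 to 10 and 0 to 5 when a mouse was left out (10 and 5 without mouse 4, where 6.40% of all genes were called higher and 6.17% lower, and 2 and 0 without mouse 1, 3, 5, 6 or 7). Without the replicate block that pairs the eyes, 1 member was called higher and 1 lower (Acot1), and 8 further genes higher and none lower, beside 5.38% and 1.37% of all genes; over all genes 1100 were called, against 559. Among the genes followed, the block changed no other call. The cause of these changes was not tested.

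Total-count scaling moved the median of all genes from -0.04 to -0.17 and turned the calls from 479 higher and 80 lower to 313 and 200. It left 9 members above 0 in place of 15 and a member median of -0.19. On this scale the log2 fold changes of Etfa (-0.0532), Etfb (-0.0193), Echs1 (-0.0668), Hadh (-0.1024), Eci2 (-0.0224) and Ehhadh (-0.0513) were below 0. Hadh was also below 0 without mice 3 and 4 (-0.0178) and ranged from -0.0078 to 0.1024 when a mouse was left out, Ehhadh from -0.03 to 0.183 and Acadm from -0.2262 to 0.0461. The other fits kept the direction of every single gene named here. Over all single-gene values and alternatives, 588 kept their direction and side of the threshold, 24 lost the threshold, 9 passed it and 11 changed sign. The median of the members stayed between -0.09 and -0.02 under all alternatives but that scaling.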
